A study of Mus musculus with 2 samples.

Results

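The genes Dbi, Tspo, Tspoap1, Gabrr2, Gabbr1, Gabarap, Gabarapl1 and Gabarapl2 stand at, or next to, the points where a benzodiazepine or GABA is known to act. They were chosen by name, 8 of the 19837 genes measured, and all 8 were found in the deposited table of single-cell molecule counts. The study took spleens of female C57/BL6N mice after an injection of saline, or 4 h or 8 h after remimazolam at 6 mg/kg. The labels count the saline group as 0 h, so no saline mice were taken at the later times. Cells of the 3 mice of each treatment carried 1 sample tag, which gives 1 pool per treatment, and the 3 pools were captured and sequenced together. The labels describe the sorted cells as CD45+CD3+CD5+ in one place and as CD45+ in another.

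Remimazolam is an ultra-short-acting benzodiazepine with an ester bond that tissue esterases cut. Benzodiazepines act in the brain on the GABA(A) receptor, a chloride channel built of subunits, where they bind between an alpha and a gamma subunit. A separate high-affinity site, the former peripheral benzodiazepine receptor, is the translocator protein TSPO of the outer mitochondrial membrane, found in many cells outside the brain and abundant in myeloid cells. GABA itself is also read by the GABA(B) receptor, which couples to G proteins, and T cells are known to be able to respond to GABA.

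The 3 pools held 5267 (saline), 5433 (4 h) and 5423 (8 h) kept cells, with medians of 2530, 2510 and 2512 molecules per cell in that order of time. Of the 16123 kept cells, 14190 (88.0%) passed the T cell gate of at least 2 molecules of Cd3d, Cd3e and Cd3g together, and 386 passed the B cell gate. The summed level of 6 T cell markers was 7190 CPM (molecules of a gene per 1000000 molecules of the class) in gated T cells and 175 CPM in gated B cells. That of 4 B cell markers was 14.0 CPM in T cells and 8774 CPM in B cells. Within T cells, classes were set by single molecules: 608 cells with Foxp3, 260 with Trdc, 210 with Klrb1c or Zbtb16, 769 CD8 cells with Ccl5 and 4836 without it, and 126 CD4 cells with S100a4 and 4747 without it. A cell without a molecule of such a gene may still express it, so the classes without Ccl5 and without S100a4 also hold cells in which it was missed. A myeloid gate took 45 cells, which held 18969 CPM of 5 myeloid markers and 21426 CPM of 5 neutrophil markers. No cell index was called under more than 1 pool. With 1 pool per treatment there is no replicate and no test. The 95% intervals below are exact, Poisson for CPM, conditional binomial for ratios and Clopper-Pearson for shares of cells. They cover counting error only, and differences between mice cannot be told apart from differences between treatments.

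The genes lie on 7 chromosomes, and GENCODE M21 on GRCm38 gives all 8 as protein-coding. Tspo is on chromosome 15 at 83563592 to 83574203 (plus strand), Tspoap1 on chromosome 11 at 87760541 to 87785928 (plus) and Dbi on chromosome 1 at 120113280 to 120121078 (minus). Gabrr2 is on chromosome 4 at 33062999 to 33095865 (plus) and Gabbr1 on chromosome 17 at 37045966 to 37075067 (plus). Gabarap is on chromosome 11 at 69991143 to 69994951, Gabarapl1 on chromosome 6 at 129533160 to 129542346 and Gabarapl2 on chromosome 8 at 111940703 to 111953612, all on the plus strand. An exon of Tspo overlaps one of Mcat on the opposite strand, and an exon of Gabarapl1 overlaps one of the noncoding gene 1700101I11Rik on the opposite strand. The sources used here do not say whether counting used strand, so molecules of these pairs may be mixed. Counts were not scaled by transcript length, so levels are compared between cells and not between genes.

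In T cells as a whole, the levels of the 6 more abundant genes differed by less than 1.2-fold between the pools, except for Gabrr2 at 4 h. A gene was counted as past the fold when its CPM ratio between 2 pools was at least 1.2 or at most its inverse, with at least 100 molecules in the pair of pools. Of the 8 genes, 6 had enough molecules to be counted, and Gabarapl1 and Tspoap1 did not. At 4 h against saline, 0 of the 6 were higher and 1 was lower, Gabrr2, where 6.12% of 9429 genes were higher and 3.15% lower. At 8 h against saline, 0 of the 6 were past the fold in either direction, where 4.62% of 9404 genes were higher and 3.77% lower. At 8 h against 4 h, 0 of the 6 were past it, where 3.11% of 9450 genes were higher and 5.58% lower. These counts do not set the 8 genes apart from the rest of the transcriptome. Both comparisons with saline rest on the same saline pool. The median log2 ratio of the 6 genes was 0.04 at 4 h against saline and 0.02 at 8 h against saline, beside 0.01 and -0.0018 over all genes counted.

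**Figure D1:**
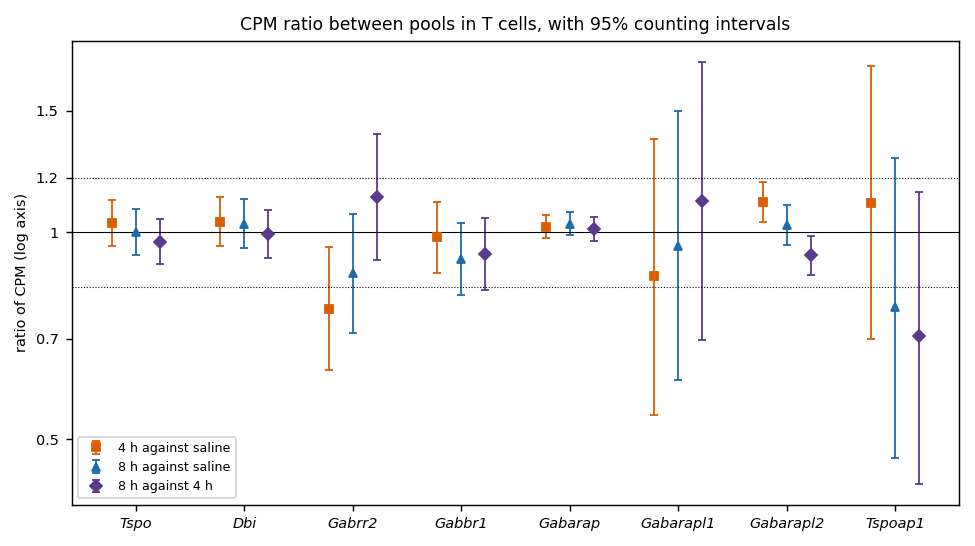
CPM ratio of each gene between pools in all T cells, on a log axis. Points are the ratios for 4 h against saline, 8 h against saline and 8 h against 4 h, bars are 95% counting intervals, and dotted lines mark the fold of 1.2 in each direction. Gabrr2 at 4 h lies below the lower line at 0.774, and the wide bars of Gabarapl1 and Tspoap1 rest on 31 to 44 molecules per pool.

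Dbi encodes the diazepam binding inhibitor, an acyl-CoA binding protein whose fragments displace benzodiazepines from their sites. Its level in T cells was 87.6 CPM in the saline pool, 90.8 CPM at 4 h and 90.1 CPM at 8 h. The 3 pools lay close together, and the ratios were 1.04 (0.955 to 1.12) for 4 h against saline and 1.03 (0.948 to 1.12) for 8 h against saline. A molecule of Dbi was found in 2744 of 14190 T cells (19.3%), and 1 cell held 13 of them. Among classes, CD4 T cells with S100a4 had 168 CPM in the saline pool, 101 CPM at 4 h and 227 CPM at 8 h, the widest spread of any class for this gene. CD4 T cells without S100a4 had 86.1, 86.1 and 83.3 CPM in the same order of pools. With the pools together, the ratio of the first class to the second was 1.92 (1.51 to 2.42), above 1 in 3 of 3 pools. Pairs of classes were picked after their levels had been seen, so these ratios are descriptions. The CD4 cells with S100a4 were also the deeper class, with a median of 3124 molecules per cell against 2451, and the part of depth in the ratio was not tested. When each cell was weighted equally, the level in CD4 cells with S100a4 was 117 CPM in place of 164 CPM. The 79 molecules of that class lay in 39 of its 126 cells. The Foxp3+ class moved the same way, at 97.2 CPM in place of 121 CPM. Its ratio to CD4 T cells without S100a4, by summed molecules, was 1.42 (1.22 to 1.65), above 1 in 3 of 3 pools. B cells had 85.2 CPM, a ratio of 0.952 (0.762 to 1.18) to T cells. The 45 myeloid cells had 232 CPM, or 2.59 times (1.76 to 3.69) the T cell level.

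Tspo, the mitochondrial receptor for the peptide that Dbi encodes and for some benzodiazepines, was at 100.4 CPM in T cells of the saline pool, 104 CPM at 4 h and 100.4 CPM at 8 h. The saline and 8 h pools were almost equal, and the ratios were 1.03 (0.956 to 1.11) for 4 h against saline and 1.00 (0.925 to 1.08) for 8 h against saline. It was detected in 3329 T cells (23.5%). The lowest class was B cells, with 49.0 CPM in the saline pool, 53.0 CPM at 4 h and 51.4 CPM at 8 h. None of these values reached the lowest pool of any T cell class, and the ratio of B to T cells was 0.506 (0.378 to 0.663), below 1 in 3 of 3 pools. With the pools together CD4 T cells with S100a4 had the highest level of the T cell classes, with 212 CPM in the saline pool, 175 CPM at 4 h and 111 CPM at 8 h. Their ratio to CD4 T cells without S100a4 was 1.48 (1.16 to 1.86), above 1 in 3 of 3 pools, although 1.04 at 8 h, where Foxp3+, Klrb1c+ or Zbtb16+ and Trdc+ cells were all above them. CD8 T cells without Ccl5 were slightly below CD4 T cells without S100a4, with a ratio of 0.882 (0.816 to 0.952), below 1 in 3 of 3 pools. Other neighbours among the T cell classes overlapped in their ranges over the pools. Myeloid cells held 247 CPM from 33 molecules, 2.44 times (1.67 to 3.43) the T cell level.

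Tspoap1 encodes a large scaffold protein that was found as a binding partner of TSPO. It was scarce, with 39 molecules in T cells of the saline pool, 44 at 4 h and 31 at 8 h, or 3.003, 3.31 and 2.34 CPM. The ratios were 1.101 (0.699 to 1.74) at 4 h and 0.778 (0.469 to 1.28) at 8 h against saline, too uncertain at this depth to give a direction. With the pools together its level was highest in the Foxp3+ class, which marks the regulatory T cell lineage, although that class held 19 of the 114 molecules in T cells. There the level was 10.1 CPM in the saline pool, 14.7 CPM at 4 h and 8.53 CPM at 8 h, each above the 2.94, 2.87 and 2.12 CPM of CD4 T cells without S100a4 in the same pools. The ratio of the 2 classes was 4.26 (2.28 to 7.75), on 19 molecules in Foxp3+ cells and 32 in the other class. In single pools other classes were above Foxp3+ cells, on 2 molecules each. These were Klrb1c+ or Zbtb16+ cells in the saline pool (11.6 CPM) and Trdc+ cells at 8 h (10.3 CPM).

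**Figure D2:**
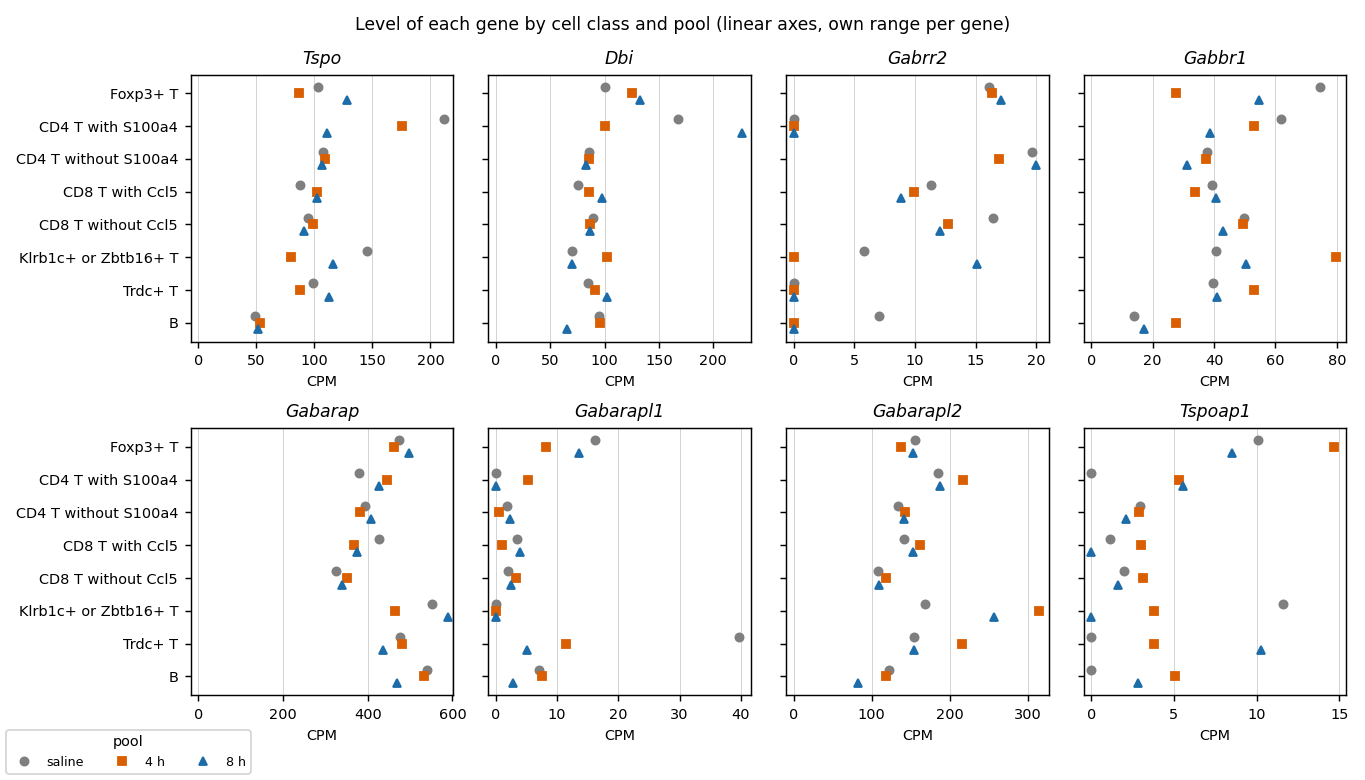
CPM of each gene in 7 T cell classes and in B cells, 1 point per pool (saline, 4 h, 8 h), on linear axes with a range of their own for each gene. With the pools together Tspo and Gabbr1 are lowest in B cells, and Gabrr2 is at 0 in Trdc+ cells and in CD4 cells with S100a4.

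Gabrr2 encodes a subunit of the GABA(A) receptor family. It belongs to a branch that forms GABA-gated chloride channels without alpha or gamma subunits, and such channels are known to be insensitive to classical benzodiazepines. It had most of the molecules counted for this family in T cells, without scaling by transcript length. Of a list of 19 subunit genes, 12 had at least 1 molecule in T cells, and the other 7 are not analysed here. Gabrr2 had 585 molecules, 94.97% of all those counted for the 12 genes. The other 11 together had 31 molecules, at most 8 for 1 gene, Gabra2, an alpha subunit. Gabrb1 followed with 6, and Gabrd had 4. These low counts were looked at after the totals were known, and the alpha and gamma subunits among them had 1 to 8 molecules each in 14190 cells. Gabrr2 molecules were found in 494 T cells (3.48%), of which 418 held a single one and the highest held 5. Another subunit was found in 31 T cells, and 0 cells held both. At these counts a gene can be missed in a cell that expresses it, so the 0 does not show that the subunits are apart.

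The Gabrr2 level in T cells was 16.8 CPM in the saline pool (218 molecules), 13.0 CPM at 4 h (173) and 14.6 CPM at 8 h (194). The saline pool was highest and the 4 h pool lowest. The ratio was 0.774 (0.631 to 0.950) for 4 h against saline, 0.871 (0.714 to 1.06) for 8 h against saline and 1.12 (0.911 to 1.39) for 8 h against 4 h. Under 9 other ways of processing, the ratio at 4 h lay between 0.709 and 0.803. Within classes, the 4 h ratio to saline was 0.865 (0.613 to 1.22) in CD4 T cells without S100a4 and 0.771 (0.541 to 1.09) in CD8 T cells without Ccl5. In Foxp3+ cells it was 1.01 (0.359 to 2.95) on 10 and 8 molecules, which leaves both directions possible at this depth.

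Gabrr2 differed more between classes than between pools. CD4 T cells without S100a4 had 19.6 CPM in the saline pool, 17.0 CPM at 4 h and 20.0 CPM at 8 h. Foxp3+ cells had 16.1, 16.3 and 17.1 CPM, which overlapped with them. CD8 T cells without Ccl5 were lower, with 16.5, 12.7 and 12.03 CPM, a ratio to CD4 T cells without S100a4 of 0.727 (0.596 to 0.884) that was below 1 in 3 of 3 pools. CD8 T cells with Ccl5 had 11.3, 9.96 and 8.88 CPM. No molecule at all was found in 260 Trdc+ cells or in 126 CD4 T cells with S100a4. By the rule that a count of 0 allows up to 3, these zeros allow shares of cells with a molecule of up to 1.15% and 2.38%, and the upper Clopper-Pearson limits are 1.41% and 2.89%. A floor of 3 molecules over each class would put the level 4.16-fold lower in Trdc+ cells than in CD4 cells without S100a4. For CD4 cells with S100a4 it would be 3.04-fold lower. These folds leave out counting error in the CD4 cells without S100a4. The exact intervals of the ratios to those cells reach up to 0.298 for Trdc+ cells and 0.407 for CD4 cells with S100a4. The Klrb1c+ or Zbtb16+ cells held 4 molecules in 210 cells. A molecule was found in 3.90% (3.36% to 4.49%) of CD4 T cells without S100a4. B cells, set beside them for the level that free RNA could give, held 2 molecules in 1 of 386 cells (0.259%, 0.00656% to 1.43%). The median depth was 2451 molecules in those CD4 cells and 2179.5 in B cells.

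Thinning each cell to 1500 molecules kept the order of the larger classes. The share with a Gabrr2 molecule was then 2.95% in Foxp3+ cells, 2.64% in CD4 T cells without S100a4, 2.02% in CD8 T cells without Ccl5, 1.18% in CD8 T cells with Ccl5 and 0.291% in B cells. Thinning left out 31, 203, 135, 7 and 42 shallower cells of these classes, in that order. The deep CD8 class with Ccl5 (median of 3533 molecules) had the widest gap to its unthinned share, which was 3.25%.

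**Figure D3:**
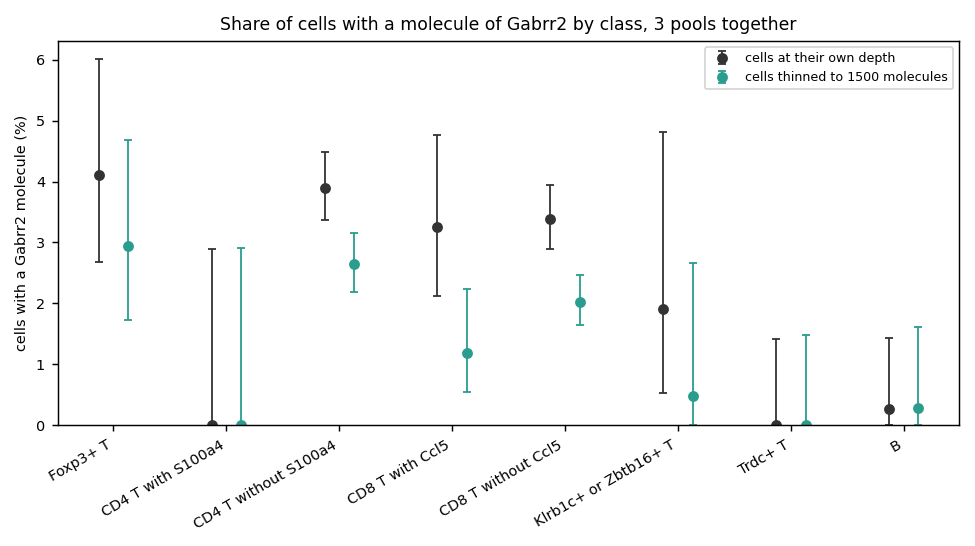
Percent of cells with a Gabrr2 molecule in 7 T cell classes and B cells, with the 3 pools together, at the cells' own depth and after thinning to 1500 molecules. Points are shares and bars are 95% Clopper-Pearson intervals. Shares of Foxp3+ cells and of CD4 cells without S100a4 are 4.11% and 3.90% before thinning, and those of Trdc+ cells and CD4 cells with S100a4 are 0.

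Gabbr1 encodes the GABA-binding subunit of the GABA(B) receptor. That receptor is known to need a second subunit, GABBR2, to reach the surface and signal, and its gene is not analysed here. In T cells Gabbr1 was at 43.5 CPM in the saline pool, 42.8 CPM at 4 h and 39.8 CPM at 8 h, in 1447 cells (10.2%). The 8 h pool was lowest, with ratios of 0.915 (0.811 to 1.03) for 8 h against saline and 0.983 (0.873 to 1.11) for 4 h against saline. Between CD8 T cells without Ccl5 and CD4 T cells without S100a4, Gabbr1 ran opposite to Gabrr2. The CD8 class had 49.8 CPM in the saline pool, 49.3 CPM at 4 h and 42.9 CPM at 8 h, and the CD4 class had 37.8, 37.3 and 31.3 CPM. The ratio was 1.34 (1.19 to 1.52), above 1 in 3 of 3 pools. Within the CD8 cells both genes ran the same way. The ratio of cells with Ccl5 to those without it was 0.798 (0.646 to 0.978) for Gabbr1 and 0.727 (0.474 to 1.08) for Gabrr2, below 1 in 3 of 3 pools each. CD4 T cells with S100a4, which had no Gabrr2 molecule, had a Gabbr1 ratio of 1.41 (0.891 to 2.12) to those without it. B cells had 14.0, 27.7 and 17.1 CPM, the lowest class with the pools together, with a ratio to T cells of 0.484 (0.299 to 0.743) that was below 1 in 3 of 3 pools. Klrb1c+ or Zbtb16+ cells had 40.7, 79.7 and 50.3 CPM, a ratio of 1.69 (1.18 to 2.36) to CD4 T cells without S100a4.

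The widest gap between pools for Gabbr1 was in Foxp3+ cells, a class picked for this after its values had been seen. They held 37 molecules in the saline pool (74.6 CPM), 17 at 4 h (27.7 CPM) and 32 at 8 h (54.6 CPM). The 4 h pool was lowest, at 0.372 (0.196 to 0.677) of the saline pool, and the 8 h pool was at 0.731 (0.441 to 1.21) of it. In 7 other ways of computing the 4 h ratio it lay between 0.350 and 0.525, the highest being the ratio of shares of cells, 8.13% at 4 h against 15.5% in saline. Of 5674 genes with at least 30 molecules in Foxp3+ cells of the 2 pools, 6.86% were lower by at least 1.5-fold at 4 h, and at 8 h it was 7.11% of 5573 genes. Of the 5 members counted there, 1 was lower at 4 h, Gabbr1, and 0 at 8 h. With such a background, 1 of 5 is not a result about the group. The summed regulatory T cell markers of the class (Foxp3, Il2ra, Ikzf2 and Ctla4) were at 3294 CPM in the saline pool, 3264 CPM at 4 h and 3056 CPM at 8 h. Each cell of the class holds Foxp3 by its gate, which fixes part of this sum. The part of the make-up of the class in the Gabbr1 ratio was not tested.

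**Figure D4:**
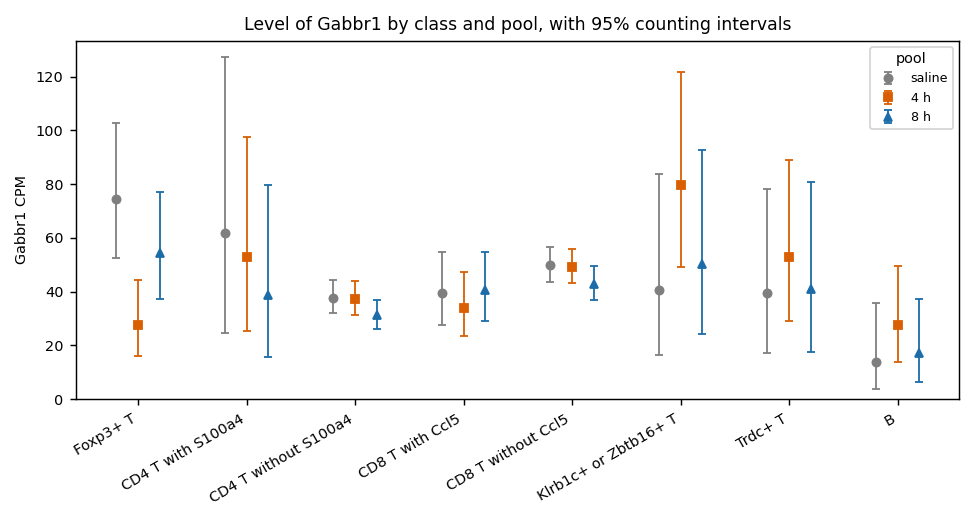
Gabbr1 CPM in 7 T cell classes and B cells in each pool (saline, 4 h, 8 h), with 95% Poisson intervals as bars. In Foxp3+ cells the 4 h point is 27.7 CPM and the saline point 74.6 CPM. The 8 h ratio to saline is 0.829 (0.652 to 1.05) in CD4 cells without S100a4. In CD8 cells without Ccl5 it is 0.861 (0.706 to 1.05).

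Gabarap, Gabarapl1 and Gabarapl2 encode small ubiquitin-like proteins of the ATG8 family. GABARAP was found as a partner of the GABA(A) receptor, which it helps to carry to the membrane, and all 3 proteins are joined to lipid on autophagosomes. Their coding sequences are 351 bases long each without the stop codon. Gabarap and Gabarapl1 are identical at 262 positions (74.6%), Gabarap and Gabarapl2 at 216 (61.5%), and Gabarapl1 and Gabarapl2 at 223 (63.5%). The longest run of bases that any pair of their transcripts shares is 17. The first 120 coding bases, from GENCODE M21 transcripts on GRCm38, show how far the family members have diverged. Capitals mark bases that differ from Gabarap at the same position, 33 in Gabarapl1 and 42 in Gabarapl2.
Gabarap: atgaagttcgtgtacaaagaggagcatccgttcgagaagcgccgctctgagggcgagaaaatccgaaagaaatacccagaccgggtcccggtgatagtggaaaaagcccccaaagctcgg
Gabarapl1: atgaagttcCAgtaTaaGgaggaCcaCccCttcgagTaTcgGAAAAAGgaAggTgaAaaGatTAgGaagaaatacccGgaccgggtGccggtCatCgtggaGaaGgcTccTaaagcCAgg
Gabarapl2: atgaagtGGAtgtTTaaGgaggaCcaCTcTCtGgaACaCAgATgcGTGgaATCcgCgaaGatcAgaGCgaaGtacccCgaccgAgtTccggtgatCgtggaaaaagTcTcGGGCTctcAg

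Gabarap was detected in 8604 T cells (60.6%) at 375 CPM in the saline pool, 382 CPM at 4 h and 386 CPM at 8 h. The pools were within a few percent, with ratios of 1.02 (0.979 to 1.06) for 4 h against saline and 1.03 (0.989 to 1.07) for 8 h against saline. B cells were above T cells at 539, 532 and 468 CPM, a ratio of 1.34 (1.23 to 1.47). Klrb1c+ or Zbtb16+ cells reached 552, 463 and 589 CPM and Foxp3+ cells 474, 462 and 496 CPM. Their ratios to CD4 T cells without S100a4 were 1.34 (1.19 to 1.49) and 1.21 (1.12 to 1.30), and both were above 1 in 3 of 3 pools. CD8 T cells without Ccl5 were the lowest class at 326, 351 and 340 CPM (saline, 4 h, 8 h), a ratio of 0.860 (0.825 to 0.895) to the same CD4 cells. The myeloid cells held 1191 CPM, 3.12 times (2.66 to 3.65) the T cell level.

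Gabarapl2 was at 128 CPM in T cells of the saline pool, 142 CPM at 4 h and 131 CPM at 8 h. The 4 h pool was highest, at 1.11 (1.04 to 1.18) of saline, and the 8 h pool was at 1.02 (0.957 to 1.096) of saline and 0.926 (0.867 to 0.988) of the 4 h pool, all short of the fold of 1.2. With the pools together the Klrb1c+ or Zbtb16+ class was highest, although CD4 T cells with S100a4 were above it in the saline pool at 185 CPM. It had 169 CPM in the saline pool (29 molecules), 315 CPM at 4 h (83) and 257 CPM at 8 h (51). Its 4 h ratio to saline was 1.87 (1.21 to 2.96), in 93 cells at 4 h and 53 cells in saline, and it was singled out after its values had been seen. Some markers of the class also differed between the pools. The 3 of natural killer T cells (Cxcr6 and the gate genes Klrb1c and Zbtb16) summed to 1134 CPM in the saline pool, 1830 CPM at 4 h and 1540 CPM at 8 h. The 4 of naive cells summed to 1343, 752 and 981 CPM. The 5 of natural killer cells, with the gate gene Klrb1c among them, summed to 965, 1200 and 1339 CPM. Like Gabarapl2 they were above saline in both later pools, but highest at 8 h. The 4 markers of memory cells were below saline in both, at 2802, 2555 and 2733 CPM. The part of the make-up of the class in the Gabarapl2 ratio was not tested. CD4 T cells with S100a4 exceeded those without it by 1.42 times (1.15 to 1.75), and CD8 T cells with Ccl5 exceeded those without it by 1.36 times (1.22 to 1.52), each in 3 of 3 pools. CD8 T cells without Ccl5 had 0.802 (0.748 to 0.860) of the level of CD4 T cells without S100a4.

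Gabarapl1 was scarce, with 43 molecules in T cells of the saline pool, 38 at 4 h and 42 at 8 h, or 3.31, 2.86 and 3.17 CPM. Its ratios to saline were 0.862 (0.542 to 1.37) at 4 h and 0.956 (0.610 to 1.498) at 8 h. Foxp3+ cells had 8 molecules in the saline pool, 5 at 4 h and 8 at 8 h, against 7, 2 and 10 in CD4 T cells without S100a4, with 608 and 4747 cells in the classes. The CPM ratio of these classes was 7.93 (4.06 to 15.6), above 1 in 3 of 3 pools. Trdc+ cells held 12 molecules, 8 of them in the saline pool, and had a ratio of 11.6 (5.15 to 25.2) to the same CD4 cells. In Klrb1c+ or Zbtb16+ cells 0 of 210 had a molecule, which allows a share of up to 1.43%.

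Genes around these 8 were followed in lists of their known partners. Of 5 genes tied to the GABA(B) receptor, Kctd12 and Kctd12b were measured, which encode auxiliary subunits. Kctd12 was at 14.2 CPM in T cells of the saline pool, 20.1 CPM at 4 h and 16.1 CPM at 8 h. It was past the fold at 4 h against saline, with a ratio of 1.41 (1.16 to 1.71), and again at 8 h against 4 h, with 0.800 (0.665 to 0.961). Of all genes counted, 6.12% were higher at 4 h against saline and 5.58% lower at 8 h against 4 h. B cells held Kctd12 at 255 CPM, far above the 16.8 CPM of all T cells, and the part of B cell RNA in the T cell level was not tested. Among T cells, Kctd12 was at 162 CPM in Klrb1c+ or Zbtb16+ cells, a class with 93 cells at 4 h and 53 in saline. Within that class Kctd12 had 224 CPM at 4 h and 87.2 CPM in saline. Without that class the 4 h ratio to saline in T cells was 1.202 (0.977 to 1.48) and the 8 h ratio to 4 h was 0.883 (0.720 to 1.08). Kctd12b was past the fold in none of the comparisons. The list's median log2 ratio was 0.16 at 4 h and 0.08 at 8 h against saline.

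In the list for GABA synthesis, breakdown and transport, 4 of 15 genes had enough molecules, and 0 of the 4 were past the fold in any comparison. Among them were Glul (glutamine synthetase, 3417 molecules in T cells), Slc6a6 (the taurine transporter, 2947) and Aldh9a1 (an aldehyde dehydrogenase that can make GABA, 2894). The list's median log2 ratio was -0.06 at 4 h and at 8 h against saline. In T cells the enzymes that make GABA from glutamate had 0 molecules (Gad1) and 1 molecule (Gad2). Gad1 had 9 molecules in all kept cells, and B cells held it at 7.75 CPM. Of the enzymes that break GABA down, Abat had 4 molecules and Aldh5a1 had 75 in T cells. These 4 genes were named after their values had been seen.

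Among 14 genes for trafficking and anchoring of GABA(A) receptors, 8 could be counted, with Ubqln1 (4119 molecules), Zdhhc3 (3173), Nsf (2405) and Trak2 (2018) the most abundant. Gphn, the gene of the scaffold protein gephyrin, was the 1 of the 8 past the fold, where 6.12% of all genes counted were higher at 4 h against saline and 5.58% lower at 8 h against 4 h. It was at 9.24 CPM in the saline pool, 12.5 CPM at 4 h and 9.80 CPM at 8 h. The ratios were 1.35 (1.06 to 1.72) for 4 h against saline and 0.785 (0.619 to 0.994) for 8 h against 4 h. The list's median log2 ratio was 0.05 at 4 h and -0.01 at 8 h against saline.

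Of 18 genes for partners of TSPO, acyl-CoA binding and the first steps of steroid synthesis, 14 could be counted against saline and 15 at 8 h against 4 h, and 0 were past the fold. The most abundant were Prkar1a (a regulatory subunit of protein kinase A, 15953 molecules), Slc25a5 (an adenine nucleotide translocator, 11958), and Vdac2 (4529) and Vdac1 (4134), which encode channels of the outer mitochondrial membrane. Their median log2 ratio was -0.02 at 4 h and 0.02 at 8 h against saline. Cyp11a1, the enzyme that makes pregnenolone, had 1 molecule in T cells, and it was named after its value had been seen.

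Of 22 genes for conjugation and cargo of the ATG8 family, 20 could be counted, and Tax1bp1 (11465 molecules), Map1lc3b (5714), Sqstm1 (5573) and Becn1 (4484) led. At 4 h against saline 1 of the 20 was higher and 1 lower, where 6.12% and 3.15% of all genes counted were, so the shares are near the background. Map1lc3a, an ATG8 paralog, had 5.19 against 4.00 CPM, and Wipi2, a protein of early autophagosomes, had 29.5 against 36.3 CPM. At 8 h against saline the shares of all genes were 4.62% higher and 3.77% lower. Map1lc3a was higher against the same saline pool, at 5.50 CPM (73 molecules) against 4.00 CPM (52 molecules). Calcoco1, a receptor for cargo of autophagy, was lower, at 45.8 against 56.8 CPM. At 8 h against 4 h 0 were higher and Calcoco1 was lower, at 0.787 (0.706 to 0.876), where 5.58% of all genes were lower. The list's median log2 ratio was -0.01 at 4 h and -0.07 at 8 h against saline. Of 15 carboxylesterase genes, the family that can hydrolyse drug esters, 0 had enough molecules. Ces2c had 33 molecules in T cells of the saline pool, 18 at 4 h and 23 at 8 h, and Ces1d and Ces2a had 2 and 1 in all.

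The genes whose level across 10 classes in 3 pools (30 points) was most like that of 4 of the members were found by Pearson's r of log2(CPM + 1) among 7607 genes with at least 500 molecules. The points share classes, pools and depth, so the values are descriptions. For Tspo these were Mrpl33 (0.880), Axin2 (0.878) and Laptm5 (0.874), and for Dbi Smc2 (0.856), H2afv (0.816) and Cs (0.813). For Gabrr2 they were Nacc2 (0.820), Rpl22 (0.775) and Washc3 (0.775), and for Gabbr1 Nlrc5 (0.837), Inpp1 (0.825) and B2m (0.824).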

How the data were processed

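Per the file headers, the deposited counts were made by the authors on GRCm38 with BD's Rhapsody pipeline for multiplexed whole-transcriptome libraries (version 1.9.1). They are whole-number counts of molecules (unique molecular identifiers) per cell and gene, which the authors corrected for sequencing errors by recursive substitution error correction. The deposited tag calls assign each cell to 1 pool. Of 17299 putative cells, 16174 had a tag in use. The 1063 called multiplets (6.14%), 60 undetermined cells and 2 cells of a tag of no group were left out. Cells with at least 200 genes and under 25% mitochondrial molecules were kept. Doublets within a pool were not called, but an alternative left out the 5% of cells with most molecules.

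Cells were gated in a fixed order on the molecules named in the report. The Foxp3+, Trdc+ and Klrb1c+ or Zbtb16+ classes held no cell with Cd8a or Cd8b1, and the Trdc+ class held none with Foxp3 or Cd4. 29 cells with both T and B cell molecules and 1473 ungated cells entered no class. Another 780 T cells with Cd4 and Cd8, and 1854 that met no class gate, counted in all T cells. They were also classes of their own among those used for Pearson's r. Molecules were summed per pool and class and divided by the total (CPM). T cells held 12984891 (saline), 13306118 (4 h) and 13268428 (8 h) molecules, so a floor of 3 molecules is 0.231, 0.225 and 0.226 CPM. Intervals of ratios, at the 95% level, were checked on simulated data. These were independent Poisson counts, the model that the intervals assume, so the check does not cover clumping of molecules within cells. Thinning drew 1500 molecules per cell. Named genes were the 8 members, subunits with at least 10 molecules, the 4 most abundant genes of each other list, those past the fold, and the 3 most alike to Tspo, Dbi, Gabrr2 and Gabbr1. Some genes that this rule takes are not reported here. The members and lists were chosen with earlier results of these data known. Alternatives changed the cell filter (500 genes, 15%), scaling (TMM factors of edgeR 4.0.16), weighting of cells, mix of classes, use of raw molecules, tag purity (90%), T cell gate (1 Cd3 molecule), fold (1.5) and minimum (30 molecules). After the data had been seen, all kept cells and the Gabbr1 ratio in Foxp3+ cells were added. Python 3.11.15 with numpy 2.4.6, pandas 2.3.3 and scipy 1.17.1 was used.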

Additional observations from a re-analysis of the deposited data

Results flagged for a closer look

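The Gabarap ratio of 4 h to saline was below 1 in CD8 T cells with Ccl5 and above 1 in those without it. This pair was singled out from its values. In CD8 T cells with Ccl5 it had 368 CPM at 4 h and 428 CPM in saline, a ratio of 0.862 (0.745 to 0.997). In CD8 T cells without Ccl5 it had 351 CPM at 4 h and 326 CPM in saline, a ratio of 1.08 (1.01 to 1.16). With 1 pool per treatment the difference between the classes was not tested, and both intervals cover counting error only.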

How the results depend on the processing

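Each of the 24 CPM ratios between pools in T cells stayed within its own counting interval under 9 alternatives, 1 of them (all kept cells) added after the data had been seen. So did the Gabbr1 ratio in Foxp3+ cells under 7 added ones. Of the class levels, 2 left their intervals, both of Dbi with each cell weighted equally. With a fold of 1.5, 0 members were lower at 4 h against saline, where 0.265% of all genes were. With at least 30 molecules, 1 member was lower at 8 h against saline and 1 at 8 h against 4 h, Tspoap1 both times, where 6.53% and 8.72% of all genes were lower. Without the Klrb1c+ or Zbtb16+ class, an alternative added after the data had been seen, the 3 Kctd12 ratios stayed within their intervals. Of 64 shares of cells, 47 left their intervals on thinning, which removes molecules by construction. Depth limits Gabarapl1, Tspoap1 and all classes of few cells. No paired analysis was possible because each treatment is 1 tagged pool.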
